A study of Rattus norvegicus with 2 samples.

Results

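The 10 genes described here carry the calcium cycle of the skeletal muscle fibre: Cacna1s, Ryr1, Trdn, Casq1, Casq2, Atp2a1, Atp2a2, Sln, Pln and Pvalb. They were found by gene name in the single-cell RNA-seq (scRNA-seq) count matrices of this study, where they made up 17 of the 49280 rows of the rat-mouse chimera, 7 of them rat and 10 mouse, and 7 of the 23373 rows of the SD rat. The rat rows of Atp2a1, Pvalb and Pln were not analysed here, so these 3 genes are described from their mouse rows alone.

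Skeletal muscle of 1 Sprague-Dawley (SD) rat and of 1 rat-mouse chimera was compared, with 1 library for each animal. The SD rat served as the control and carried no mouse cells. The chimera grew from an SD rat morula into which mouse induced pluripotent stem cells (iPSCs) had been injected. These iPSCs were of the genotype Dmd mdx; Pax7-nGFP: they came from a mouse model of Duchenne muscular dystrophy, their dystrophin gene had been edited, and a nuclear GFP reporter marked Pax7-expressing cells. No treatment is given for either animal, the labels used here give no ages, and only this chimera of the several that were born was sequenced, so a difference between the libraries cannot be told apart from a difference between these animals. Muscle from the whole body was digested with collagenase, strained, and sorted for live cells before capture in droplets.

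Contraction starts when an action potential moves Cacna1s, the voltage sensor of the L-type calcium channel in the transverse tubule, which opens Ryr1, the calcium release channel of the sarcoplasmic reticulum. Triadin (Trdn) anchors calsequestrin at the release channel, and calsequestrin (Casq1, with Casq2 as the form of heart and slow muscle) buffers calcium inside the store. Relaxation follows when the SERCA pumps return calcium to the store. Atp2a1 encodes SERCA1 of fast fibres, and Atp2a2 encodes SERCA2 of slow fibres, heart, smooth muscle and, in another splice form, most other cells. Sarcolipin (Sln) and phospholamban (Pln) are small membrane proteins that inhibit SERCA, and parvalbumin (Pvalb) is a soluble calcium buffer of fast fibres.

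The promoters of 4 members are shown first because their products mark the contrasts that follow. Among classes of at least 50 barcodes, Cacna1s and Casq1 were highest in myofibres here, whereas Casq2 and Atp2a2 were highest in smooth muscle. Casq2 and Atp2a2 were also read higher in slow than in fast fibres. Each line gives the 250 bases before the annotated start on the coding strand, from RefSeq on the rat build GRCr8, at chr13:50045418-50045667 (plus strand) for Cacna1s, chr13:87212711-87212960 (minus strand) for Casq1, chr2:192214306-192214555 (plus strand) for Casq2 and chr12:39733269-39733518 (plus strand) for Atp2a2. Capitals mark an E-box, which was searched as CANCTG. They also mark the TATAAA motif and, in Casq2, the longer MEF2 site. The remaining capitals are GC boxes, searched as GGGCGG. All 4 motifs were searched on both strands, and none of the matches shown overlap.
Cacna1s: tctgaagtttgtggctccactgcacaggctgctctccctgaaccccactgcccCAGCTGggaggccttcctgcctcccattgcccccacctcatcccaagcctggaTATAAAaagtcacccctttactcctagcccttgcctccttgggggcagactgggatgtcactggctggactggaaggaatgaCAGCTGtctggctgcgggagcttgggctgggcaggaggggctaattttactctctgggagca
Casq1: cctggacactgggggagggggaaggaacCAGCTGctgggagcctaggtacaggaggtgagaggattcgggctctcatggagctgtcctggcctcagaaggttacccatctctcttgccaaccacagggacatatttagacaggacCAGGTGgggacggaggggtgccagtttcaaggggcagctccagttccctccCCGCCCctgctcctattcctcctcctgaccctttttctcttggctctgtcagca
Casq2: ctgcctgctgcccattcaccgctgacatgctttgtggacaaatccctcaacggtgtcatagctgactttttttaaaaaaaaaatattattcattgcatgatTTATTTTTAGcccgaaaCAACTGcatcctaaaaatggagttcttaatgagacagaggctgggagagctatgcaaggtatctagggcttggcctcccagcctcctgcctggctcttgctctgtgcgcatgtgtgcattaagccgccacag
Atp2a2: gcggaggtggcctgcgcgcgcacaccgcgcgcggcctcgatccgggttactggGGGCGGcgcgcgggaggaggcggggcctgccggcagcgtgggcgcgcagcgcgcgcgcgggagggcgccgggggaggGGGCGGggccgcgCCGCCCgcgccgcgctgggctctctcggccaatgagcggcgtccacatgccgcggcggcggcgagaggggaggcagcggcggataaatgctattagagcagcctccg

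An E-box is the sequence bound by myogenic factors such as MyoD, and MEF2 factors bind an AT-rich site in many muscle genes. The Cacna1s promoter held 2 E-boxes, 197 and 62 bases before the start, and a TATAAA 144 bases before it. In the Casq1 promoter there were 2 E-boxes, 222 and 105 bases before the start, and 1 GC box. Casq2 held 1 E-box 132 bases before the start and the 1 MEF2 site found among the members, 149 bases before the start. Atp2a2 held 3 GC boxes and no E-box, with a GC content of 80% against a median of 51.2% over all 33469 promoters of this length. Of the members not shown, Trdn and Ryr1 were also highest in myofibres. The Trdn promoter held 0 matches to any of the motifs, and that of Ryr1 held 1 E-box and 2 GC boxes. Whether these motifs bear on the levels was not tested. Such letters are common: 43.3% of all promoters held an E-box, 30.5% a GC box, 12.9% a TATAAA and 2.96% a MEF2 site. RefSeq entries were matched for 9 of the 10 members, with Sln the member not matched.

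In all, 8812 barcodes of the SD rat and 11746 of the chimera were kept, with medians of 6265 and 7866.5 UMIs (unique molecular identifiers, each counting 1 captured transcript), and 43 barcode sequences occurred in both libraries. By the share of their UMIs on mouse rows, 8241 chimera barcodes (70.2%) were called rat, 1849 (15.7%) mouse and 1656 (14.1%) mixed. Classes were gated on marker genes that include none of the 10 members. Levels are given as CPM, the UMIs of a gene per 1000000 UMIs of the same species summed over the barcodes of a class, with exact Poisson intervals. With 1 library per animal there is no replicate check, so no test was run, and all 95% intervals cover counting error only.

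The myofibre gate rests on sarcomere and fibre metabolism genes such as Acta1, Ckm, Ttn and Neb. It held 1655 SD rat barcodes (18.8%), 843 rat barcodes of the chimera (10.2%), 383 mixed and 27 mouse barcodes. Fast-fibre genes kept out of the gate were found in most of these barcodes. Actn3, the alpha-actinin of fast fibres, had a UMI in 88.5% of the SD rat barcodes and 96.6% of the rat barcodes of the chimera. The muscle glycogen phosphorylase Pygm had one in 90.0% and 98%. Such shares were not compared with those in other classes. Summed markers of each other class had a median of 0 in these barcodes, except smooth muscle markers in the SD rat, at 0.990 UMIs per 10000. SD rat myofibre barcodes had a median depth of 3560 UMIs, and those of the chimera 5421. Mitochondrial genes gave a median of only 0.841% and 0.313% of their UMIs, against 6.63% and 6.95% in myogenic progenitors (MPs). Whether such a barcode holds a whole fibre or a piece of one was not tested.

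The genes of the release machinery were myofibre genes in both animals. Trdn reached 941 CPM (918–964) in SD rat myofibres, from 6654 UMIs in 1400 of 1655 barcodes, and 985 CPM (958–1014) in rat myofibres of the chimera. In the SD rat the next class of at least 50 barcodes, pericytes, stood at 69.8 CPM, and B cells, which have no sarcoplasmic reticulum of this kind, at 39.0 CPM. The 38 differentiating myoblasts, too few for this ranking, gave 90.3 CPM (66.1–120). Myofibre Trdn was 23.3-fold over the median of the other ranked classes in the SD rat, 40.5 CPM, and 45.4-fold in the chimera, 21.7 CPM. The folds differed more through these medians than through the myofibre levels. How much of the level in the other classes was RNA from outside the cell was not tested.

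Casq1 gave 226 CPM (215–237) in SD rat myofibres and 330 CPM (314–346) in those of the chimera, against 36.4 and 25.1 CPM in smooth muscle, the next class in each animal. Cacna1s gave 102 CPM (95.2–110) and 149 CPM (138–160), with the next class at 15.6 and 9.94 CPM. Ryr1 gave 139 CPM (130–147) and 102 CPM (92.9–111). It was the release gene with the clearest second level in the muscle lineage. Among classes of at least 50 barcodes, MPs were next in the SD rat at 25.4 CPM and differentiating myoblasts in the chimera at 37.7 CPM. The 38 differentiating myoblasts of the SD rat, too few for this ranking, gave 72.7 CPM (51.2–100). For all 4 genes the myofibre interval did not overlap that of the next class. No class was free of these transcripts: Trdn lay between 9.87 and 69.8 CPM in the other SD rat classes of at least 50 barcodes and between 10.3 and 37.6 CPM in the chimera.

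**Figure D1:**
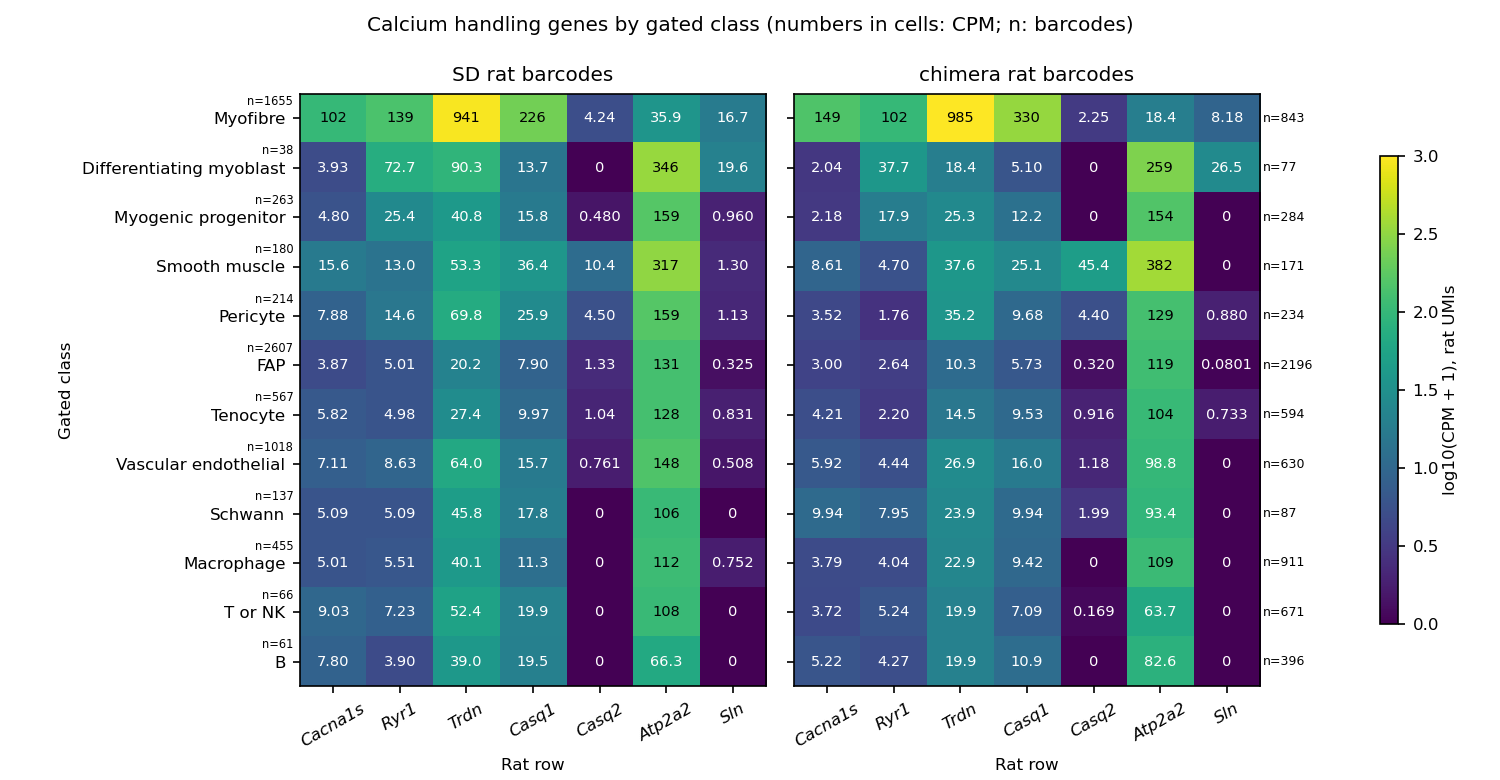
Level of the 7 members with a rat row (columns) in 12 gated classes (rows) of SD rat barcodes (left) and rat barcodes of the chimera (right). Colour is log10(CPM + 1) and the printed number is CPM, with n the number of barcodes. Cacna1s, Ryr1, Trdn and Casq1 were highest in myofibres in both panels, while Atp2a2 was lowest there, at 35.9 and 18.4 CPM.

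Read per barcode, the SD rat values for Trdn ranged from 0 to 31 UMIs with a median of 3, and those for Cacna1s from 0 to 6. Trdn had a UMI in 84.6% of SD rat and 94.5% of chimera rat myofibre barcodes. At a common depth of 1000 UMIs per barcode, rat and mouse rows together, the shares were 57.6% (55.1–60.2) and 55.6% (52.1–59.0). This left out 156 SD rat and 6 chimera barcodes. Mouse rows held 9.23% of the UMIs in the chimera rat myofibre barcodes, so their rat depth after thinning was lower than that of the SD rat. In B cells, with median depths of 3921 and 4843.5 UMIs before thinning, the thinned Trdn shares were 1.72% and 2.02%. For Casq1 the thinned myofibre shares were 20.7% and 24.6%, for Ryr1 14.4% and 10.5%, and for Cacna1s 10.5% and 12.5%.

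Atp2a2, the SERCA2 pump, followed the opposite order. Among classes of at least 50 barcodes it was highest in smooth muscle, at 317 CPM (278–359) in the SD rat and 382 CPM (349–418) in the chimera. It was lowest of these classes in myofibres, at 35.9 CPM (31.6–40.6) and 18.4 CPM (14.8–22.6). The 38 differentiating myoblasts of the SD rat, too few for this ranking, gave 346 CPM (296–401). MPs lay between at 159 and 154 CPM, as did FAPs at 131 and 119 CPM. The thinned share of barcodes with an Atp2a2 UMI was 28.7% and 28.1% in smooth muscle against 2.60% and 1.67% in myofibres, and B cells stood at 5.17% and 7.58%. The myofibre share therefore did not exceed that of B cells.

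Sln, the SERCA inhibitor, was highest in myofibres of the SD rat at 16.7 CPM (13.8–20.0), and no other SD rat class of at least 50 barcodes exceeded 1.34 CPM. Of these 118 UMIs, 27 came from a single barcode, and only 46 barcodes had any. In the chimera the differentiating myoblasts were highest at 26.5 CPM, from 77 barcodes, above the myofibres at 8.18 CPM (5.84–11.1). The 38 differentiating barcodes of the SD rat, too few for the ranking, gave 19.6 CPM. Casq2 was highest in smooth muscle in both animals, at 10.4 CPM (4.49–20.5) and 45.4 CPM (34.5–58.7). In the SD rat its interval overlapped that of pericytes at 4.50 CPM.

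Along the muscle lineage the members fell into separate patterns. From MPs to differentiating myoblasts to myofibres, Ryr1 stepped up at each stage, from 25.4 to 72.7 to 139 CPM in the SD rat and from 17.9 to 37.7 to 102 CPM in the chimera. Trdn, Casq1 and Cacna1s were high in myofibres alone. Chimera Trdn gave 25.3, 18.4 and 985 CPM, Casq1 12.2, 5.10 and 330 CPM, and Cacna1s 2.18, 2.04 and 149 CPM in this order. The SD rat had 90.3 CPM of Trdn in differentiating myoblasts, where 28 of 46 UMIs came from 1 barcode.

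Atp2a2 peaked in the middle stage, with 159, 346 and 35.9 CPM in the SD rat and 154, 259 and 18.4 CPM in the chimera. Over MPs, myofibre Trdn was higher by 4.53 on the log2 scale in the SD rat and 5.28 in the chimera, whereas Atp2a2 differed by -2.15 and -3.06. Sln appeared at the middle stage, with 0.960, 19.6 and 16.7 CPM in the SD rat and 0, 26.5 and 8.18 CPM in the chimera. No Sln UMI was seen among the 2289623 rat UMIs of the chimera MPs.

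The comparison the design implies is the myofibre of the chimera against that of the SD rat, and here the release and storage genes stood close together. Of the 7 members with a rat row, 0 were at least 2-fold higher in rat myofibres of the chimera, where 2.18% of the 9095 genes with at least 20 UMIs were. Lower by at least 2-fold was 1, Sln, where 15.3% of all genes were, so the members' count stood near the background. The Sln call was lost when 1 barcode was left out of the SD rat side alone. It stayed when the top 2 barcodes of each animal were left out. The median log2 ratio was -0.45 over the members and -0.30 over all genes.

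Casq1 was higher in the chimera, 330 against 226 CPM, a log2 ratio of 0.55 (0.45 to 0.65). Cacna1s was higher by a similar step, 149 against 102 CPM, or 0.54 (0.39 to 0.69). Trdn differed little, 985 against 941 CPM or 0.07 (0.01 to 0.12). Ryr1 gave 102 against 139 CPM or -0.45 (-0.61 to -0.29). None of the 4 passed 2-fold. Ryr1 lay between the quartiles of all genes, -0.73 and 0.06, whereas Trdn, Cacna1s and Casq1 lay above the upper quartile and below the 95th percentile of 0.62.

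Atp2a2 and Sln were read lower in the chimera. Atp2a2 gave 18.4 against 35.9 CPM, a log2 ratio of -0.96 (-1.33 to -0.61). Sln gave 8.18 against 16.7 CPM, or -1.03 (-1.58 to -0.50). Without the SD rat barcode that held 27 of the 118 Sln UMIs, the SD rat value was 12.9 CPM and the ratio -0.66 (-1.23 to -0.10), so that 0 members passed 2-fold. With the top 2 barcodes of each animal left out it was -1.12 (-1.82 to -0.47). Casq2 rested on 11 and 30 UMIs, 2.25 against 4.24 CPM, or -0.91 with an interval from -2.06 to 0.12 that includes no difference. Of the 30 SD rat UMIs, 10 came from 1 barcode, without which the ratio was -0.33 (-1.54 to 0.80). For Atp2a2, 1 SD rat barcode held 26 of 254 UMIs, and without it the ratio was -0.81 (-1.18 to -0.45). Slow-gated barcodes made up 1.78% (0.999–2.92) of the rat myofibre barcodes of the chimera and 2.48% (1.78–3.35) of those of the SD rat, with overlapping intervals. Barcodes between slow and fast made up 0.237% (0.0287–0.854) and 1.03% (0.599–1.64), and their part in these ratios was not tested. Among fast-gated barcodes alone, Atp2a2 gave 10.2 against 17.8 CPM (-0.80, -1.31 to -0.31), Sln 7.70 against 14.8 CPM (-0.95) and Casq2 -0.12 (-1.51 to 1.19), and 0 of the 7 members passed 2-fold, against 2.20% of 8995 genes higher and 14.8% lower.

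The references differed as well, because the chimera reads could also map to mouse genes. When the mouse row of each gene was added to its rat row in these barcodes, Casq1 gave a log2 ratio of 0.44, Cacna1s 0.46, Trdn 0.00, Ryr1 -0.54, Atp2a2 -1.0 and Sln -1.10. Pooling turned the direction of no member. In the pooled counts 1 of 7 members, again Sln, was lower by 2-fold, against 11.4% of all genes, and 0 were higher, against 3.30%.

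**Figure D2:**
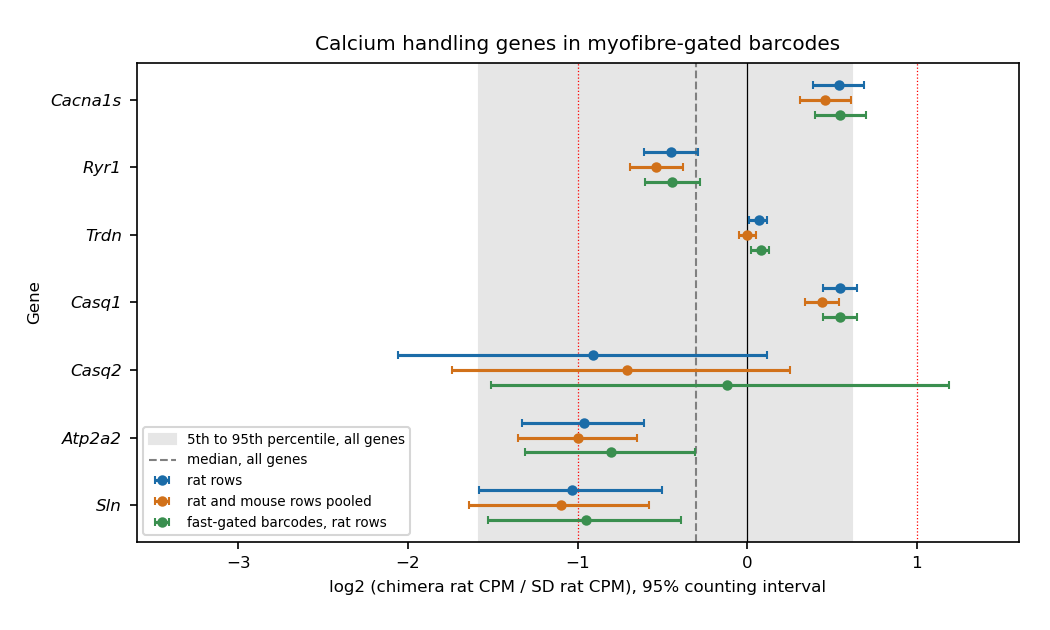
Log2 ratio of CPM in myofibre barcodes, rat barcodes of the chimera over SD rat, for the 7 members with rat rows alone, with rat and mouse rows pooled and in fast-gated barcodes. Points are ratios, bars are 95% intervals from counting error, dotted lines mark 2-fold, and the band spans the 5th to 95th percentile of 9095 genes (-1.58 to 0.62) around their median of -0.30. Casq1 and Cacna1s lie above 0, Ryr1, Atp2a2 and Sln below it.

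A wider list of 40 calcium genes (channel subunits, junction proteins, pump regulators, buffers, kinases and store-operated entry), 34 of which had at least 20 UMIs, was read in the same barcodes. Of these 34, 0 were 2-fold higher (2.18% of all genes were) and 1 was 2-fold lower (15.3% of all genes), with a median of -0.19. That gene was Stim1, the calcium sensor of the store, at 4.09 against 8.20 CPM, a log2 ratio of -1.0 (-1.82 to -0.25) from 20 and 58 UMIs. With rows pooled, 0 of 34 were lower. The other 33 genes lay between these limits.

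Larger ratios were seen between slow and fast fibres of the same animal. Barcodes were gated by their troponin UMIs (Tnnt1, Tnni1 and Tnnc1 for slow, Tnnt3, Tnni2 and Tnnc2 for fast), which gave 41 slow and 1597 fast barcodes in the SD rat and 15 slow and 826 fast rat barcodes in the chimera. The myosins, which the gate did not use, followed it: the slow myosin Myh7 had 408 UMIs in the 41 slow barcodes of the SD rat and 37 in the 1597 fast barcodes, and the fast myosin Myh4 had 15 and 25055.

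Atp2a2 had the largest ratio of the members compared in both animals. In the SD rat it gave 506 CPM (403–629) in slow and 17.8 CPM (14.7–21.2) in fast barcodes, 28.5-fold, from 82 and 122 UMIs, and it was seen in 46.3% of slow and 5.57% of fast barcodes. Of the 82 slow UMIs, 51 came from 2 barcodes, and without the top 2 barcodes of each side the ratio was 12.7-fold. In the chimera it gave 547 CPM (387–751) against 10.2 CPM (7.54–13.5), 53.6-fold, in 66.7% and 4.60% of barcodes, and 50.4-fold without the top 2.

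Sln was also higher in slow barcodes, with 86.5 against 14.8 CPM in the SD rat, 5.83-fold. Only 3 slow UMIs stood behind the chimera value, 43.2 against 7.70 CPM, a log2 ratio of 2.49 (0.15 to 4.15). Casq2 gave 37.1 against 2.04 CPM in the SD rat, a log2 ratio of 4.19 (2.52 to 5.66) from 6 and 14 UMIs, and without the top 2 barcodes the interval ran from -0.13 to 5.28. The form of calsequestrin shifted with it. Casq2 made up 20.7% (7.99–39.7) of Casq1 and Casq2 UMIs in slow and 0.887% (0.486–1.48) in fast barcodes of the SD rat, and 25% (3.19–65.1) and 0.560% (0.256–1.06) in the chimera.

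The release genes were not read higher in slow barcodes. In the SD rat Trdn gave 828 against 940 CPM, Ryr1 92.6 against 139 CPM and Cacna1s 74.1 against 103 CPM, and each of these 3 intervals of the ratio included no difference. Of the 15 slow Ryr1 UMIs, 11 came from 2 barcodes, and without the top 2 barcodes of each side Ryr1 gave 26.6 against 136 CPM, a log2 ratio of -2.35 (-4.23 to -0.99), and Trdn -0.30 (-0.60 to -0.02). Removing 2 barcodes takes a larger share of the 41 slow than of the 1597 fast. Casq1 gave 142 against 228 CPM, a log2 ratio of -0.68 (-1.34 to -0.09). The chimera ratios were lower but rested on few slow UMIs: Casq1 gave -1.95 (-3.39 to -0.82) from 6, Cacna1s -2.39 (-5.44 to -0.53) from 2, Ryr1 -1.84 (-4.89 to 0.02) from 2 and Trdn -0.78 (-1.27 to -0.34) from 40. In the SD rat 3 of 7 members were 2-fold higher in slow barcodes, against 13.7% of 7972 genes, and 0 lower, against 8.08%. Among the 6 tested in the chimera 2 were higher and 3 lower, against 23.6% and 4.89% of 6255 genes.

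**Figure D3:**
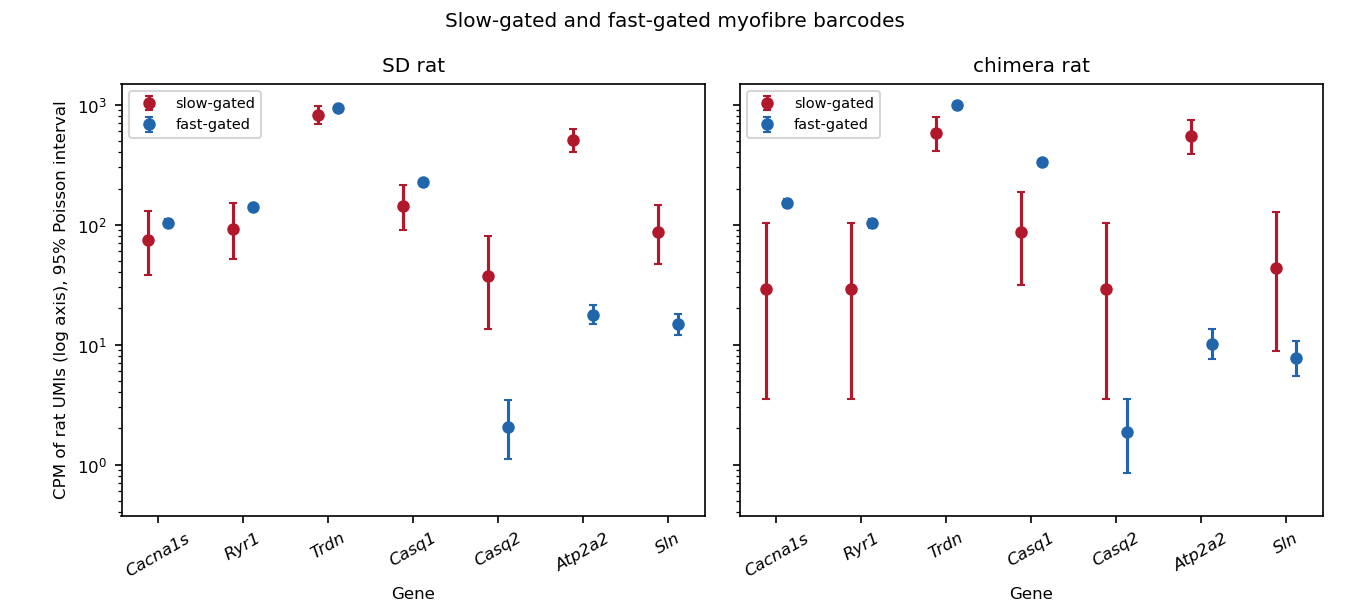
CPM of each member in slow-gated against fast-gated myofibre barcodes of the SD rat (41 and 1597 barcodes) and the rat barcodes of the chimera (15 and 826), on a log axis with exact 95% Poisson intervals. Atp2a2 stands at 506 and 547 CPM in slow and 17.8 and 10.2 CPM in fast barcodes, while Trdn, Ryr1, Cacna1s and Casq1 lie lower in slow barcodes in both animals, with overlapping intervals in part.

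The small membrane proteins that regulate SERCA split by fibre type in the same barcodes. Of the wider list, 4 of 34 genes were 2-fold higher (13.7% of all genes) and 8 lower (8.08%) in slow barcodes of the SD rat, and 9 and 7 of 33 in the chimera (23.6% and 4.89% of all genes). Strit1, which encodes DWORF, a peptide that raises SERCA activity, was singled out after its values were seen. It gave 1822 CPM in slow and 5.38 CPM in fast barcodes of the SD rat, a log2 ratio of 8.40 (7.91 to 8.94), and was detected in 39 of 41 slow barcodes and 2.25% of fast ones. In the chimera it gave 3295 and 5.2 CPM, or 9.31 (8.71 to 9.96), in 15 of 15 slow and 0.484% of fast barcodes, where 23 of the 25 fast UMIs came from 2 barcodes.

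Mrln, which encodes myoregulin, a SERCA inhibitor, went the other way. It gave 130 against 490 CPM in the SD rat, a log2 ratio of -1.92 (-2.61 to -1.30), and 187 against 583 CPM in the chimera, or -1.64 (-2.55 to -0.86). Slow barcodes thus carried more Sln, Strit1 and Atp2a2 and less Mrln. The calcineurin regulator Rcan1 was higher in slow barcodes, 266 against 27.1 CPM in the SD rat and 389 against 21.9 CPM in the chimera, where 22 of the 27 slow UMIs came from 2 barcodes. The channel subunit Cacng1 was lower, 204 against 419 CPM and 259 against 601 CPM. In the chimera 14 of its 18 slow UMIs came from 2 barcodes, without which it gave 98.6 against 599 CPM. Mrln, Rcan1 and Cacng1 were likewise chosen after their values were seen.

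Fast-fibre calcium genes of the mouse were read in the 27 mouse myofibre barcodes. Pvalb had 1050 UMIs, 11840 CPM (11135–12579) of mouse UMIs, and was present in 27 of 27 barcodes. Atp2a1 gave 2233 CPM (1933–2566) in 26 of 27 barcodes, Trdn 1004 CPM (806–1235) in 21, Casq1 474 CPM (341–640) in 18 and Cacna1s 169 CPM (94.7–279) in 7. Ryr1 had 4 UMIs, all in 1 barcode, and Sln 2, also in 1. Atp2a2, Casq2 and Pln had 0 UMIs, which allows up to 33.8 CPM. All 27 barcodes were gated fast, and they showed the fast set of pump and buffer and no detected slow pump. The limit of 33.8 CPM lies above Atp2a2 in rat fast-gated barcodes, 17.8 CPM in the SD rat and 10.2 CPM in the chimera. The 0 UMIs therefore do not set these barcodes apart from rat fast ones.

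The mouse cells before the fibre stage read differently. In 6 mouse differentiating myoblasts, Atp2a1 gave 484 CPM (364–630) in 6 of 6 barcodes, Atp2a2 229 CPM (149–335) and Sln 52.8 CPM (19.4–115), while Pvalb had 1 UMI. In 32 mouse MPs Atp2a2 gave 115 CPM and Ryr1 18.0 CPM, while Atp2a1 had 1 UMI and Pvalb 9 UMIs in 9 barcodes (32.5 CPM, 14.9–61.7). Atp2a2 was read in both earlier gates and had 0 UMIs in the fibre gate. The 10 Pln UMIs of mouse vascular endothelial barcodes lay in 9 of 1054 barcodes.

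Mouse and rat rows of the same gene could be compared inside the same barcodes. In the 383 mixed myofibre barcodes, 44.3% of all UMIs were mouse and the median of 3714 gene pairs was 45.2%, with quartiles of 33.3% and 59.3%. Trdn had a mouse share of 33.4% (30.9–35.9), just inside the lower quartile, and Casq1 37.0% (33.1–41.1). Ryr1 stood at 38.4% (30.3–47.1), Cacna1s at 41.8% (34.6–49.3) and Atp2a2 at 28.6% (11.3–52.2). These 5 shares were below the pair median, although the intervals of Ryr1, Cacna1s and Atp2a2 included it, and how well rat and mouse reads of each gene were kept apart by the mapping was not tested. Above the median were Sln, 76.9% mouse with 16 of its 20 mouse UMIs in 1 barcode, and Casq2, with 4 of 4 UMIs mouse (39.8–100%).

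In the rat myofibre barcodes of the chimera the mouse share was 4.99% for Trdn, 2.01% for Casq1, 3.96% for Cacna1s, 3.50% for Ryr1 and 4.76% for Sln, against a pair median of 5.87%. Above it were Atp2a2 at 7.22% (2.95–14.3) and Casq2 at 21.4% (4.66–50.8, 3 of 14 UMIs). In the 27 mouse barcodes Trdn was 84.8% mouse, Casq1 79.2% and Cacna1s 75%, against a pair median of 88.8%.

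**Figure D4:**
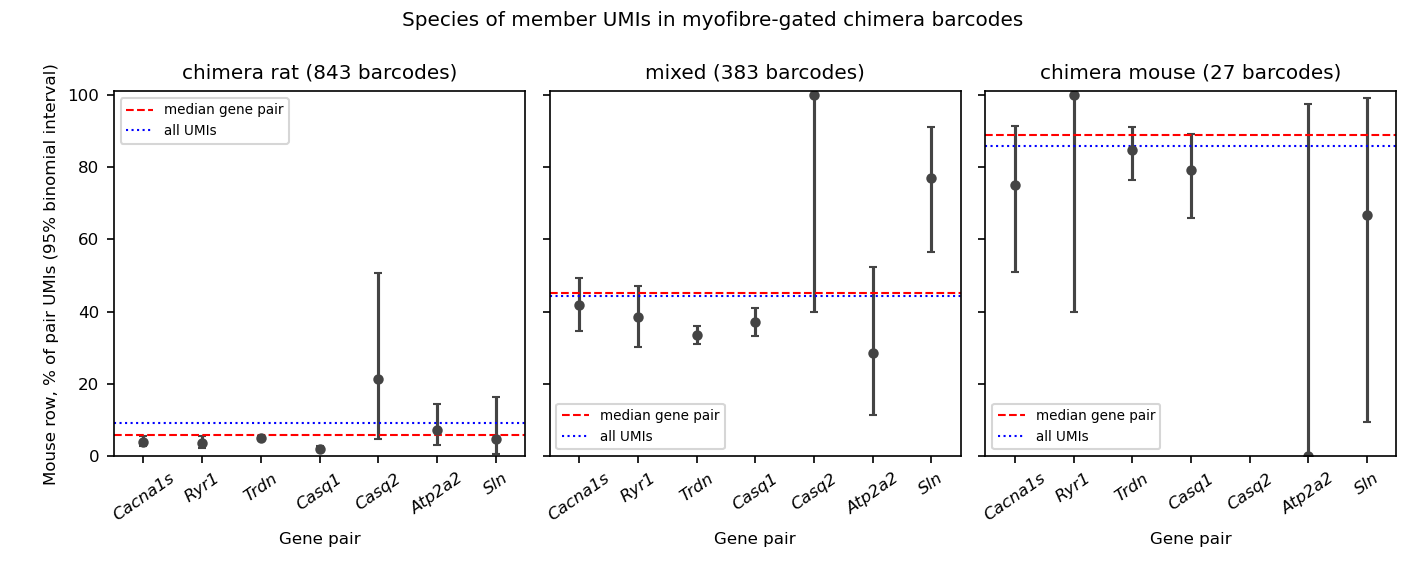
Mouse share of rat plus mouse UMIs (percent) for members with both rows in myofibre barcodes called rat, mixed and mouse, with exact 95% binomial intervals. Lines give the median over gene pairs and the share over all UMIs. In mixed barcodes Trdn lies at 33.4% and Casq1 at 37.0%, below the pair median of 45.2%.

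Levels in mixed barcodes spanned those between rat and mouse barcodes. Binned by the share of mouse UMIs in each myofibre barcode, mouse Pvalb went from 168 CPM, here of all UMIs, in the 33 barcodes under 5% mouse to 13081 CPM in the 5 barcodes above 90%. Mouse Atp2a1 went from 25.8 to 2338 and mouse Trdn from 61.3 to 1232 CPM, while rat Trdn went from 1003 to 126 CPM. The last bin holds 5 barcodes and the bin before it 22, where Pvalb was 8886 CPM. The same UMIs set both the bins and part of the levels, so the slope is a description.

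Mouse Pvalb was also read in barcodes called rat, at 391 CPM of all UMIs in myofibres and 41.4 CPM in B cells. Relative to 1000 mouse fast troponin UMIs it gave 96.1 (92.1–100) in rat, 113 (111–116) in mixed and 116 (109–124) in mouse myofibres, and 149 (120–181) in rat B cells. Mouse Atp2a1 gave 13 (11.5–14.6), 17.5 (16.5–18.5) and 21.9 (19.0–25.2) in the myofibre sets and 24.5 (14–39.8) in rat B cells. Mouse fibre transcripts thus occurred in barcodes of rat and non-muscle classes too, and a mouse UMI in a rat barcode is not read here as expression by that cell.

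Outside the fibre, Casq2 differed between the animals in smooth muscle. It had 8 UMIs in 8 of 180 barcodes of the SD rat (10.4 CPM) and 58 rat UMIs in 40 of 171 rat barcodes of the chimera (45.4 CPM), 4.37-fold or 2.13 on the log2 scale (1.05 to 3.41). Of the 5 members tested in this class it was the 1 that was 2-fold higher, against 6.07% of 7858 genes, and 0 were lower, against 9.30%. Atp2a2 in the same barcodes gave 382 against 317 CPM, a log2 ratio of 0.27 (0.05 to 0.50). Casq2 in FAPs gave 0.320 against 1.33 CPM, but 30 of the 41 SD rat UMIs lay in 1 barcode, and without it the SD rat value was 0.358 CPM, a log2 ratio of -0.16 (-1.68 to 1.29).

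Depth, mitochondrial share and the markers of the class moved with the Casq2 difference, and their part in it was not tested. The smooth muscle myosin Myh11 gave 2571 CPM in the chimera against 1182 CPM, and the smooth muscle actin Acta2 3247 against 1303 CPM. The skeletal actin Acta1, a fibre transcript, gave 3014 against 5169 CPM. These barcodes had a median depth of 7358 UMIs in the chimera against 2267, and the thinned share of barcodes with a Casq2 UMI was 2.99% against 1.55%. Without the limit on mitochondrial UMIs the SD rat value was 29.3 CPM (35 UMIs in 394 barcodes) and that of the chimera 42.6 CPM (74 UMIs in 330 barcodes), a log2 ratio of 0.54 (-0.06 to 1.16), below 2-fold. With rat and mouse rows pooled, the same barcodes gave 82.0 against 29.3 CPM, 2.80-fold.

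The species rows of Casq2 also stood apart in this class. The rat smooth muscle barcodes of the chimera had 66 mouse UMIs beside the 58 rat UMIs, a mouse share of 53.2% (44.1–62.2), where the median gene pair had 3.45% and Atp2a2 4.69% (3.03–6.89). The share was 53.3% in the 32 barcodes with up to 10% mouse UMIs and 53.2% in the 139 with more. In the 52 mixed barcodes it was 40.9% (26.3–56.8), against a pair median of 48.0%. The 8 mouse smooth muscle barcodes, with a median depth of 2036.5 UMIs, had 0 Casq2 UMIs of either species. Whether rat Casq2 reads map to the mouse row was not tested. With rows pooled the chimera gave 85.9 against 10.4 CPM, 8.27-fold, and was again the 1 member of 5 that was 2-fold higher, against 5.77% of 8052 genes. In the pooled counts 1 member, Cacna1s, was 2-fold lower, at 7.62 against 15.6 CPM from 11 and 12 UMIs, against 10.3% of genes.

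The genes whose pattern over the 13 SD rat classes was most like that of each member were mostly fibre genes, by Pearson's r of log2(CPM + 10) among 12133 genes. These values share libraries, depth and the gates, and they are a description. Trdn was nearest Ankrd23 (0.990), Mybpc2 (0.988), the fast myosin binding protein, and Pygm (0.985). Casq1 was nearest Mybpc2 (0.984), Ankrd23 (0.981) and Eef1a2 (0.980), and Cacna1s nearest Pygm (0.987), AABR07051450.1 (0.974) and Actn3 (0.973).

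Ryr1 was nearest Mdh2, Atp5mg and Fitm1 (each 0.980), of which the first 2 encode mitochondrial enzymes. Sln was nearest Ppp1r3a (0.991), Uqcr10 (0.990) and RGD1565323 (0.986). Atp2a2 had no neighbour as close, with Man1c1 at 0.912, Itpkc at 0.884 and Exoc6b at 0.883. Casq2, from 106 UMIs in all, was nearest Rcan2 (0.922), Chmp4c (0.908) and Mymk (0.901).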

How the data were processed

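Single-cell libraries (10x Genomics 3′ v3.1) of 1 SD rat and 1 rat-mouse chimera were measured. The authors deposited unnormalized UMI counts for each gene in each barcode. The submitters' processing notes name Cell Ranger 7.1.0 and the builds mRatBN7.2 and GRCm39. The chimera was counted on 23373 rat, 25906 mouse and 1 EGFP row, the SD rat on the same rat rows. A transcript similar in both species can be lost or shifted between rows only in the chimera, and so rows were also pooled. Total counts were 118872850 UMIs in 13299 barcodes (chimera) and 70957559 in 10117 (SD rat).

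Barcodes with at least 500 UMIs, 200 genes and at most 20% mitochondrial UMIs were kept. Scrublet in scanpy 1.11.5 removed 428 chimera and 168 SD rat doublets (3.52% and 1.87%). Species were called at 80% of UMIs (rat up to 20% mouse), and others were mixed. Barcodes were gated by 117 markers of 16 classes, with both species' rows summed (score at least 0.5, lead at least 0.25, at least 2 markers detected), after 5 markers lacking a row in either species were dropped. Near the limits lay 132 of 1655 SD rat and 87 of 1253 chimera myofibre barcodes. Slow barcodes had at least 50% and fast at most 10% slow troponin UMIs, of at least 5.

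UMIs were summed per class and animal. Ratios of CPM have exact conditional binomial 95% intervals, shares Clopper-Pearson intervals, and a sum of 0 a limit of 3 counts. Genes with at least 20 UMIs over both sides were compared, and 2-fold was the call. Named were all members, genes of the wider list past 2-fold between the animals, and 3 nearest genes per member, with exceptions stated. The members and lists were chosen with earlier results of these data known. Calculations used Python 3.11.15, numpy 2.4.6, scipy 1.17.1 and pandas 2.3.3 and were tested on simulated data.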

Additional observations from a re-analysis of the deposited data

How the results depend on the processing

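No paired analysis was possible because each group is 1 library and the labels give the groups no shared replicate numbers, and for the same reason no replicate could be left out. Of 200 recomputed main values 165 held, 35 moved and 0 reversed, and 300 of 302 log2 ratios of single members kept their sign. A count held if it stayed within a set factor of the main count. Ratios and shares held if they stayed inside the counting interval of the main value. Only a log2 ratio of at least 2-fold could be called reversed, so for counts and shares that outcome was fixed in advance. Values that were not finite were left out. The alternatives on fast-gated barcodes, the top 1 or 2 barcodes and the majority species call were chosen after seeing the data.

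Members 2-fold lower in the chimera numbered 1, but 0 with no lead required of the gate, with a pseudocount of 10 CPM, in fast-gated barcodes alone or without the SD rat barcode with most UMIs of each member, 2 with doublets kept or with no mitochondrial limit, and 3 with species called at 90%. The wider list, with 1 lower, had 0 with doublets kept, rows pooled, the pseudocount or at least 100 UMIs, 2 with no lead, no mitochondrial limit, a mean of barcode CPM or at least 1 UMI, and 3 at 90%. Members lower in slow barcodes of the SD rat numbered 0, but 2 by mean CPM and 3 without the top 2 barcodes, which take a larger share of the smaller slow side. The 2 members higher in slow barcodes of the chimera became 0 at a minimum of 100 UMIs, since fewer genes were tested.

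In mixed myofibres the mouse share of Trdn was 30.7% under a stricter gate and 21.4% at 90%, and that of Casq1 22.6% at 90%. In mouse myofibres called by majority, Trdn and Casq1 were both 59.2% mouse. The log2 ratio of myofibres over MPs for Atp2a2 was -2.43 in the SD rat under the stricter gate, and in the chimera -3.52 at 90% and -2.71 with doublets kept; that of chimera Trdn was 4.88 at 90%. Thinned to 500 UMIs, Trdn was detected in 36.0% (SD rat) and 37.5% (chimera) of myofibre barcodes and Atp2a2 in 1.33% and 0.830%. At 2000 UMIs, Trdn was detected in 80.1% and 77.7% and SD rat Atp2a2 in 3.62%. The causes were not tested, except that thinning sets depth by construction.

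Over all genes, 198 were higher and 1394 lower in chimera myofibres; the counts were 27 and 108 with the pseudocount, 746 and 2445 at a minimum of 1 UMI, 50 and 429 at 100 UMIs, 307 higher with rows pooled and 2482 lower by mean CPM. Between slow and fast SD rat barcodes, 1092 were higher and 644 lower; higher were 383 with the pseudocount, 1865 at 1 UMI, 295 at 100 UMIs and 1649 with a gate on myosins, and lower were 1278 by mean CPM. In the chimera, 1478 and 306 became 803 and 946 with the pseudocount, 395 were higher at 100 UMIs and 837 lower by mean CPM. Depth limits Casq2, Sln and all slow barcodes of the chimera, where single genes rest on few UMIs.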

Other observations

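Cacna1s and Ryr1 were also read outside the muscle gates. Among mouse barcodes that no gate took, 76 had UMIs of at least 2 of 7 genes known from dendritic cells (among them Flt3, Ccl17, Il12b and Batf3), a list chosen after the values were seen, so no cell type is assigned. In these barcodes mouse Cacna1s had 80 UMIs in 31 barcodes, 60.5 CPM (47.9–75.2), and mouse Ryr1 46 UMIs in 27 barcodes, 34.8 CPM (25.4–46.4). Trdn had 0 UMIs there, which allows up to 2.27 CPM, and Casq1 had 2 UMIs. The 177 other ungated mouse barcodes gave 5.44 CPM of Cacna1s, 5.44 CPM of Ryr1 and 10.9 CPM of Trdn, at a median of 2235 UMIs against 16799.5.

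Rat barcodes picked by the same list held few Cacna1s UMIs. The 32 of the SD rat had 1 (2.50 CPM) and the 52 of the chimera 6 (7.82 CPM), 5 of them in 1 barcode. Because the list was chosen after the mouse values were seen, this is not an even comparison of the species. Among ungated mouse barcodes, the 33 with a Cacna1s UMI held 261 CPM of Bcl2l14 against 11.2 CPM in the 220 without, and 371 against 30.4 CPM of the chemokine Ccl17. Ccl17 is also in the list that set the barcodes above, so the contrasts are not independent of each other. Depth was not matched between the barcodes with and without a Cacna1s UMI.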
